A study of Mus musculus with 8 samples.

Results

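Protein kinase A (PKA) is the main effector of cyclic AMP. Its catalytic subunits are held inactive by a dimer of regulatory subunits, and are released when cAMP binds to these. Small heat-stable inhibitor proteins of the PKI family bind free catalytic subunits and block them, and A-kinase anchoring proteins tether the regulatory subunits to sites in the cell. In brown adipose tissue (BAT), noradrenaline acts through beta-adrenergic receptors, cAMP and PKA to drive lipolysis and heat production. The 10 genes described here, of 33641 in the count files, are the catalytic subunits Prkaca and Prkacb, the regulatory subunits Prkar1a, Prkar1b, Prkar2a and Prkar2b, the inhibitors Pkia, Pkib and Pkig, and the mitochondrial anchoring protein Akap1. Pkia was chosen by its large fall in the comparison reported here, so its values are a description without a test. Of the other 9, 8 were taken as the PKA subunits and inhibitor paralogs, and Akap1, an anchoring protein, was listed with them. All were chosen with earlier results of these data known.

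Poly(A) RNA was sequenced from interscapular BAT of 8 C57BL/6 mice aged 28 weeks. The libraries A7, A8 and A12 came from wild-type littermate controls. The libraries A24, A25, A26, A29 and A31 were labelled adipo-HuR-/-, in which the RNA-binding protein HuR (gene Elavl1) is deleted by a Cre driven by the adiponectin promoter, so that cells of BAT other than adipocytes keep the gene. The comparison asks which transcripts differ in BAT when adipocytes lack HuR. Total counts ran from 17558090 in A25 and 18264754 in A24 to 67498055 in A26. Levels between libraries are given as CPM (a count scaled to a common library total), normalized by the trimmed mean of M values (TMM).

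Elavl1 was measured at 50.6, 48.0 and 49.2 CPM in the control libraries A7, A8 and A12. It was at 61.9 CPM in A24, 47.3 CPM in A25, 43.4 CPM in A26, 61.3 CPM in A29 and 61.2 CPM in A31. The groups overlapped, and no fall of Elavl1 was measured (log2 fold change 0.16, SE 0.16; edgeR quasi-likelihood test, adjusted p = 0.667). The count covers the whole gene, and 204 exonic bases of Elavl1 are shared with Ccl25 on the opposite strand. The published description of these BAT samples gives the group sizes the other way round from the labels. The groups used here follow the labels, the direction of every difference below rests on them, and whether they were exchanged was not tested.

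The libraries also differed in transcripts of skeletal muscle. The 24 contractile genes of skeletal muscle, all detected, summed to 4261 CPM in A7, 2624 CPM in A8 and 457 CPM in A31. In A12, A24, A25, A26 and A29 the sum was 56.7, 47.8, 35.8, 27.4 and 50.8 CPM. Myh4, a fast myosin heavy chain and the gene of this list with the highest mean CPM, was at 1048 CPM in A7, 457 CPM in A8, 106 CPM in A31 and 0.0209 CPM in A12. It was at 0.113 CPM in A24 and at 0 in A25, A26 and A29. In A12, A24, A25, A26 and A29, from 72.6% to 92.4% of the sum was Myl1, a myosin light chain chosen after its values were seen. Without Myl1 the sum was 4034 CPM in A7, 2387 CPM in A8 and 409 CPM in A31, and from 4.33 to 8.80 CPM in the others. A7, A8 and A31 thus stood apart from the rest. In bulk tissue, fewer cells of a type and less RNA per cell cannot be told apart. The source of the muscle transcripts was not tested. The 12 brown adipocyte markers were all detected, with a sum of 24442 ± 8960 CPM in controls (SD, n = 3) and 22194 ± 4886 CPM in the libraries labelled adipo-HuR-/- (SD, n = 5). Fabp4, a fatty acid carrier, had the highest mean CPM of these, though Ucp1 of the same list was above it in A12 and A31.

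All 10 genes passed the filter on low counts. Of these, 1 was past the threshold of adjusted p at most 0.05 and fold change at least 1.5, namely Pkia, which was chosen by this contrast, so nothing is read from the count. Over all 14851 genes tested, 105 (0.707%) were past it, of which 69 (0.465%) fell and 36 (0.242%) rose with the label adipo-HuR-/-. Leaving out A7, A8, A24, A25, A26 or A29 in turn left 0 of the 10 past it, beside 0.0855%, 0.947%, 0.584%, 0.102%, 0.0680% and 0.0956% of all genes. Without A12 or A31 the number stayed at 1, beside 1.24% and 0.116% of all genes. None of the other 9 genes passed with edgeR, DESeq2 or limma voom. At an unadjusted p of at most 0.05, edgeR gave 1 of the 9 (Prkar2a), DESeq2 gave the same gene, and limma voom gave 2 (Prkacb and Prkar2a), beside 17.0%, 18.4% and 18.6% of all genes. For 1 of the 9, Prkar1b, no library of a group fell within the range of the other, beside 11.5% of all genes (6.09% lower and 5.37% higher). Without A8 this held for 3 of the 9, with Prkacb and Prkar2a added, beside 26.9% of all genes. It held for Prkar1b alone of the 9 without A7, A12, A24, A25, A26, A29 or A31, beside 19.1%, 17.2%, 16.7%, 13.2%, 14.3%, 13.4% and 13.2% of all genes, and when scaled to total counts, beside 13.4%. Pkia also did not overlap, from which nothing is read.

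**Figure D1:**
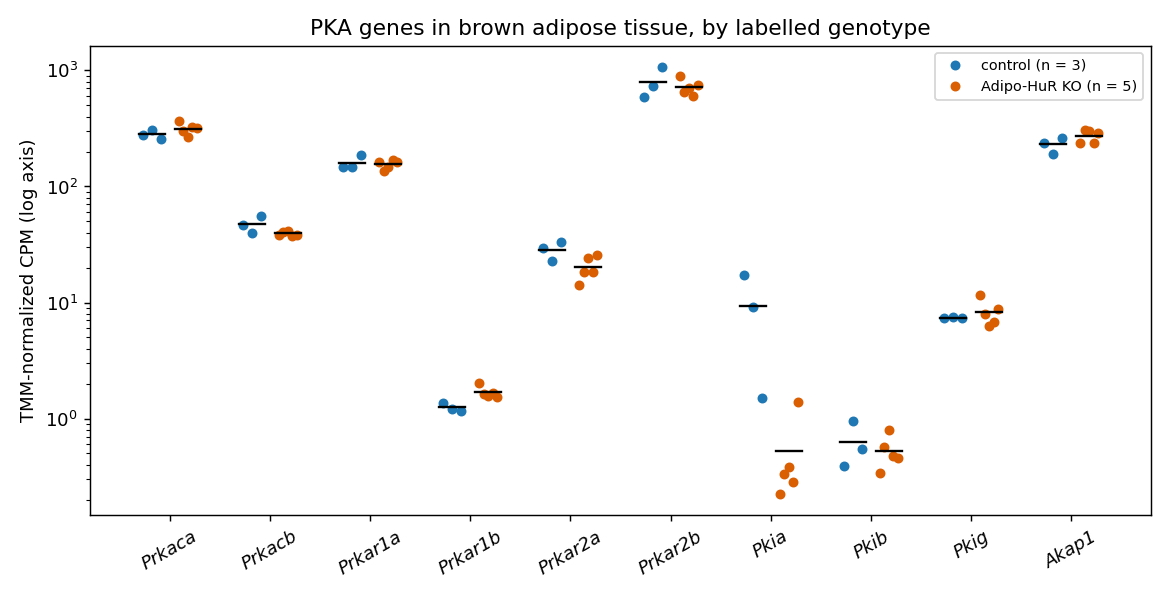
TMM-normalized CPM (log axis) of the 10 genes in each library, with 3 control libraries and 5 labelled Adipo-HuR KO; points are libraries and black lines are group means. Pkia and Prkar1b are the genes whose groups do not overlap on this scale, and Pkia in A12 (1.504 CPM) sits close to A31 (1.38 CPM).

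Pkia encodes the PKI alpha inhibitor, the form known best from skeletal muscle. It was at 17.1 CPM in A7, 9.17 CPM in A8 and 1.504 CPM in A12. In A24, A25, A26, A29 and A31 it was at 0.226, 0.332, 0.385, 0.284 and 1.38 CPM. Controls spanned a wide range, with A7 11.4-fold above A12, while A12 was 1.09-fold above A31. The fewest reads of Pkia were 4 in A24 and 7 in A25, where the 95% Poisson intervals of 0.0615 to 0.578 CPM and 0.134 to 0.684 CPM cover counting error only. For A12 and A31 the intervals of 1.18 to 1.89 CPM and 1.11 to 1.69 CPM overlapped. The fitted log2 fold change was -4.05 (SE 0.74). By size it ranked 7 among the 69 falls past the threshold, which restates how Pkia was chosen, so nothing is read from it.

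The 3 libraries highest in contractile genes, A7, A8 and A31, included the highest values of Pkia in each group. Without these libraries, which leaves A12 as the lone control, assumed to vary like the other group, the log2 fold change of Pkia was -2.26 (SE 0.55). With the mean log2 CPM of the contractile genes as a covariate it was -2.09 (SE 0.30). Scaled to total counts alone, Pkia was at 1.42 CPM in A12 and 1.55 CPM in A31, so the groups overlapped. These values of Pkia are a description, and the part of muscle transcripts in its difference was not tested. All 24 contractile genes had a log2 fold change below 0, with a median of -4.64 beside 0.00 for all genes. With edgeR, 21 of them had an unadjusted p of at most 0.05, beside 17.0% of all genes. Past the threshold were 3 with edgeR (Myh7, Myl1 and Myl2), 8 with DESeq2, 9 with the edgeR likelihood ratio test and 0 with limma voom, beside 0.707%, 5.51%, 4.41% and 1.06% of all genes. With limma voom, 1 of the 24 had an unadjusted p of at most 0.05, beside 18.6% of all genes. The 5 genes most like Pkia over the 8 libraries, by Pearson correlation of log2 CPM among 14850 genes, were Wfdc1 (r = 0.983), Mlip (0.982), Epdr1 (0.978), Kcnj2 (0.975) and Shisa4 (0.973). These correlations are a description, and the libraries share the same split, with A7 and A8 high. In A7, A8 and A12, Wfdc1 was at 1.28, 0.734 and 0.334 CPM. Mlip, a muscle-enriched lamin-interacting protein, was at 4.57, 4.25 and 0.710 CPM there, and Epdr1 at 4.02, 3.14 and 1.84 CPM. Kcnj2, an inward rectifier potassium channel, was at 2.79, 1.11 and 0.522 CPM, and Shisa4 at 4.83, 2.28 and 0.481 CPM. Among libraries labelled adipo-HuR-/-, all were highest in A31. Wfdc1, Mlip, Epdr1, Kcnj2 and Shisa4 were there at 0.394, 0.591, 1.21, 0.576 and 0.651 CPM.

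**Figure D2:**
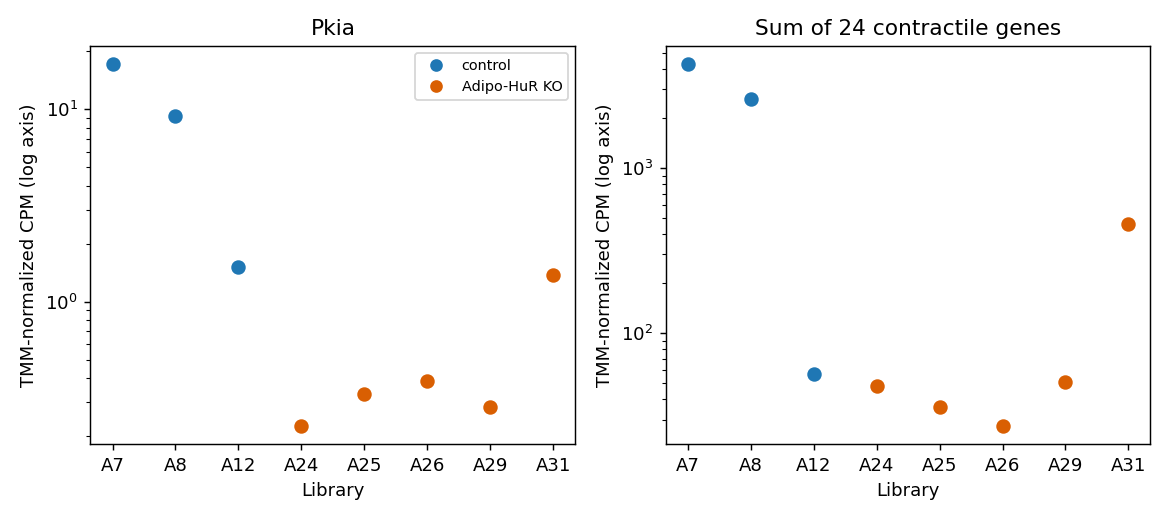
Pkia (left) and the sum of 24 skeletal muscle contractile genes (right) in each library, both in TMM-normalized CPM on log axes, coloured by labelled group. A7 and A8 are the highest in both panels, and A31 is the highest of its group in both, while A12 has 1.504 CPM of Pkia beside a contractile sum of 56.7 CPM, of which 92.4% is Myl1.

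The other inhibitors gave no such difference. Pkig, the PKI gamma form, was at 7.37, 7.49 and 7.36 CPM in A7, A8 and A12, and ran from 6.33 CPM in A26 to 11.5 CPM in A24 among the libraries labelled adipo-HuR-/-, with a median of 7.97 CPM. The control values lay inside that range (log2 fold change 0.15, SE 0.21; edgeR adjusted p = 0.761). Pkib, the PKI beta form, was low throughout, from 0.389 to 0.962 CPM in controls and from 0.338 to 0.800 CPM in the other group, on 6 to 54 reads a library (log2 fold change -0.22, SE 0.42; edgeR adjusted p = 0.831). A mean of 37.99% of its reads were assigned to a transcript with a retained intron, and 4.73% of its 31-base words occur in transcripts of other genes, so its level is uncertain.

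Among the regulatory subunits, Prkar1b (RI beta, known mainly from brain) was at 1.36, 1.22 and 1.17 CPM in A7, A8 and A12. In A24, A25, A26, A29 and A31 it was at 2.03, 1.61, 1.56, 1.67 and 1.53 CPM. Every library labelled adipo-HuR-/- was above every control in CPM, also when scaled to total counts. In TPM the groups overlapped, with A31 at 0.992 TPM and A24 at 1.05 TPM below A7 at 1.11 TPM. The difference did not pass the threshold (log2 fold change 0.42, SE 0.25; edgeR adjusted p = 0.426), and 8.27% of its 31-base words are shared with Gm15672, which had 0 counts in these libraries. Prkar2a (RII alpha) was at 29.8, 22.8 and 33.2 CPM in the controls and at 14.0, 18.4, 24.03, 18.1 and 25.6 CPM in A24, A25, A26, A29 and A31. Here A26 and A31 lay above the control A8, so the groups overlapped (log2 fold change -0.51, SE 0.21; edgeR adjusted p = 0.256).

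Prkar2b encodes RII beta, the form abundant in adipose tissue. It ran from 592 to 1065 CPM in controls and from 607 to 900 CPM in the libraries labelled adipo-HuR-/- (log2 fold change -0.15, SE 0.22; edgeR adjusted p = 0.786). Its reads were divided over 3 transcripts, of which Prkar2b-203, with a mean share of 41.3%, has a coding length of 768 bases against 1248 bases for the others. Prkar2b-202 held 40.2% ± 6.58 in controls (SD, n = 3) and 23.9% ± 9.31 in the other group (SD, n = 5), and Prkar2b-201 held 19.6% ± 10.1 and 34.1% ± 7.15. This was not tested, and in both the libraries of the groups overlapped. These shares were estimated before deposition, and that of Prkar2b-203 varied from 16.0% to 54.9% between libraries. Prkar1a (RI alpha) ran from 146 to 187 CPM in controls and from 136 to 169 CPM in the other group (log2 fold change -0.04, SE 0.15; edgeR adjusted p = 0.918).

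Of the catalytic subunits, Prkacb was at 46.4, 39.9 and 56.1 CPM in A7, A8 and A12, and at 38.5, 40.9, 41.6, 37.7 and 38.1 CPM in A24, A25, A26, A29 and A31. Both A25 and A26 exceeded the lowest control, A8, so the groups overlapped (log2 fold change -0.27, SE 0.14; edgeR adjusted p = 0.368). Prkaca ran from 258 to 305 CPM in controls and from 267 to 367 CPM in the other group (log2 fold change 0.17, SE 0.16; edgeR adjusted p = 0.640). Akap1, which holds PKA at the outer mitochondrial membrane, ran from 192 to 262 CPM and from 237 to 307 CPM (log2 fold change 0.25, SE 0.17; edgeR adjusted p = 0.511).

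Scaling to total counts alone moved the median of all log2 fold changes up by 0.23. On that scale the values of Prkar1a, Prkar2b and Pkib changed sign, to 0.18, 0.080 and 0.055 (log2), each below the shift itself.

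Levels of different genes can be compared only per transcript length, as TPM (counts divided by transcript length, scaled to a common total). Over the 8 libraries the highest was Prkar2b at 408 ± 88.2 TPM (SD, n = 8), followed by Prkaca at 185 ± 35.8 TPM, Akap1 at 108 ± 34.5 TPM and Prkar1a at 67.9 ± 12.4 TPM, and this order held in all 8 libraries. Prkacb (14.3 ± 3.97 TPM), Pkig (11.0 ± 2.69 TPM) and Prkar2a (8.19 ± 3.76 TPM) followed. Neighbours among these differed by less than the larger SD of each pair, though by more than the SD of Pkig, with Prkacb above Pkig in 6 and Pkig above Prkar2a in 5 of the 8 libraries. Prkar1b was at 1.202 ± 0.440 TPM and Pkib at 0.280 ± 0.125 TPM. Pkia spanned 0.111 TPM in A29 to 11.6 TPM in A7, and lay above Prkar1b in A7 and A8 and below it in the other 6 libraries.

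Within the kinase, Prkaca made up 91.6% ± 2.05 of catalytic TPM in controls (SD, n = 3) and 93.5% ± 1.17 in the libraries labelled adipo-HuR-/- (SD, n = 5). Prkar2b made up 83.2% ± 1.68 and 84.4% ± 2.33 of regulatory TPM. The ratio of regulatory to catalytic TPM was 2.59 ± 0.729 and 2.37 ± 0.268. All 3 of these overlapped between the groups. The inhibitors together came to 8.40% ± 2.32 of catalytic TPM in controls and 5.80% ± 0.932 in the other group, again with overlap. This sum holds Pkia, so nothing is read from it, and Pkib and Pkig alone came to 5.65% ± 0.143 and 5.62% ± 0.838. Pkia made up 48.5%, 32.8% and 5.35% of inhibitor TPM in A7, A8 and A12, against 3.22%, 1.93%, 2.16%, 1.17% and 5.96% in A24, A25, A26, A29 and A31. The value in A24 rests on 4 reads, with 47.5% of Pkia counts there assigned to Pkia-202, a transcript of 315 bases. The share in A31 was above that in A12, so the groups overlapped. Pkig made up 50.8%, 63.4% and 92.5% in the controls and from 92.8% to 96.3% in the other group, with A12 close to A31. This share is nearly what Pkia leaves over, so it follows the values by which Pkia was chosen, and nothing is read from its lack of overlap.

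**Figure D3:**
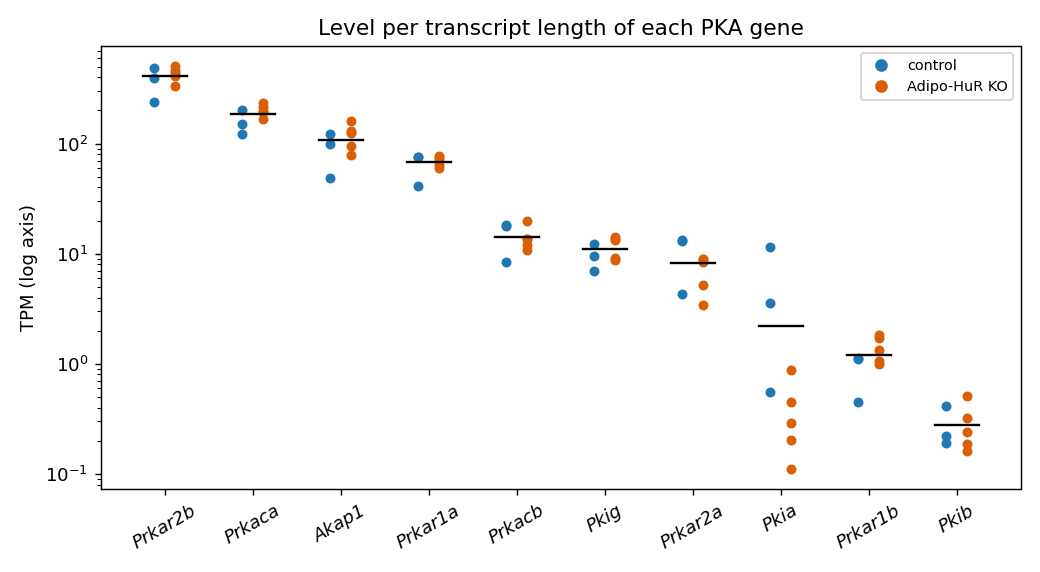
TPM (log axis) of the 10 genes in each library, ordered by the mean over 8 libraries (black line), with points coloured by labelled group. Prkar2b, Prkaca, Akap1 and Prkar1a keep their order in all 8 libraries, while Pkia spans 0.111 to 11.6 TPM.

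The surrounding pathway was read from 94 genes, of which 87 passed the filter. None was past the threshold with edgeR, where 18 of the 87 had an unadjusted p of at most 0.05, beside 17.0% of all genes. DESeq2 called 3, the edgeR likelihood ratio test 2 and limma voom 0 of the 87, beside 5.51%, 4.41% and 1.06% of all genes. The median log2 fold change was 0.02, beside 0.00 for all genes tested, with 42 below 0 and 45 above. In 6 of the 87 genes the ranges of the groups were apart, beside 11.5% of all genes. Chosen after their values were seen, Pde4c was called by DESeq2 beside Akap13 and Pde8b, and the likelihood ratio test called Akap13 and Ppp1r1b. With edgeR, Akap13 was called without A8, beside 0.947% of all genes, and Bves and Popdc3 without A12, beside 1.24%. Popdc3 is not among the 87, and passed the filter in the fit without A12. It had 36 reads in A7, 20 in A8 and 0 to 3 in the libraries labelled adipo-HuR-/-. At an adjusted p of at most 0.10, edgeR called Akap13 alone of the 87, beside 3.16% of all genes. Among 18 other anchoring proteins tested, Akap13 had the smallest p, at 101, 55.3 and 118 CPM in A7, A8 and A12 and from 37.0 to 60.9 CPM in the libraries labelled adipo-HuR-/- (log2 fold change -0.97, SE 0.24; edgeR adjusted p = 0.092). Here A25 lay above the control A8. Opa1, which remodels mitochondrial cristae, was the most abundant of this list (log2 fold change -0.16, SE 0.16), and Akap4 was at 0 in every library.

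Of 29 genes of cAMP supply and removal tested, 12 had a log2 fold change below 0 and 17 above. Pde8b, a cAMP phosphodiesterase, was at 1.46, 1.52 and 1.80 CPM in controls and from 0.548 to 1.01 CPM in the other group, without overlap (log2 fold change -0.95, SE 0.29; edgeR adjusted p = 0.135). Gnas, whose product couples receptors to adenylyl cyclase, was the most abundant (log2 fold change 0.42, SE 0.26). Among 7 other cAMP-binding proteins and PKA-like kinase genes tested, Bves, a cAMP-binding membrane protein of striated muscle, was at 1.75, 0.836 and 0 CPM in A7, A8 and A12 and at most 0.285 CPM in the other group (edgeR adjusted p = 0.169). Rapgef3 (Epac1) was the most abundant there (log2 fold change 0.52, SE 0.22).

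Of 20 genes encoding PKA substrates, 13 had a log2 fold change below 0 and 7 above. Ppp1r1b (DARPP-32) had the smallest p of these, from 0.0486 to 0.167 CPM in controls and from 0.282 to 0.587 CPM in the other group (log2 fold change 1.84, SE 0.53; edgeR adjusted p = 0.121), on 3 to 31 reads a library. The groups did not overlap, and of the tools run the likelihood ratio test alone called it. Lipe, the hormone-sensitive lipase, had the highest mean CPM (log2 fold change -0.13, SE 0.18). Per transcript length, Plin1 of the same list was higher, at a mean of 734 TPM against 609 TPM for Lipe. Of 15 cAMP-responsive transcripts, 5 were below 0 and 10 above. Nr4a3, an orphan nuclear receptor, was at 2.95, 9.06 and 38.6 CPM in A7, A8 and A12 and from 2.31 to 9.76 CPM in the other group (log2 fold change -1.67, SE 0.68; edgeR adjusted p = 0.248). Ucp1, the uncoupling protein of brown fat, ran from 4843 to 11438 CPM in controls and from 4251 to 10703 CPM in the other group (log2 fold change -0.13, SE 0.35).

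Genes most like the other 9 over the 8 libraries are again a description. Prkacb was most like Man1a2 (r = 0.983) and Ddx6 (0.977), Prkar2a was close to Agtpbp1 (0.976), and Prkar1b was most like Hist1h4h (0.971) and Srf (0.967). Prkaca was most like Tmem11 (0.958) and Zdhhc16 (0.955), Prkar1a most like Taf1b (0.946) and Casc4 (0.928), and Prkar2b most like Mfsd1 (0.973) and Pacs1 (0.966). Pkib was close to Pag1 (0.962). The most like were, for Pkig, Lmna (0.965) and A930018P22Rik (0.955), and, for Akap1, Scap (0.979) and Sgsm3 (0.969).

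The summed markers of each other cell type overlapped between the groups. The leading gene named for each is that with the highest mean CPM over the 8 libraries. The 6 endothelial markers, led by Cdh5, summed to 408 ± 53.3 CPM in controls (SD, n = 3) and 467 ± 93.4 CPM in the other group (SD, n = 5), and the 6 mural and smooth muscle markers, led by Rgs5, to 309 ± 42.4 and 292 ± 12.8 CPM. The 6 macrophage markers, led by Lyz2, came to 74.0 ± 42.1 and 67.2 ± 17.7 CPM, and the 6 fibroblast markers, led by Col3a1, to 343 ± 169 and 221 ± 62.1 CPM. The 6 neuron markers, led by Stmn2, came to 3.09 ± 0.234 and 3.64 ± 0.548 CPM, and the 6 Schwann cell markers, led by Mbp, to 102 ± 19.1 and 75.0 ± 14.9 CPM. Pmp22 was above Mbp in A7, A8, A12 and A24, and Kdr above Cdh5 in A7, A8, A25 and A31. Pecam1 was above Cdh5 in A24, and Dcn above Col3a1 in A26. Of single markers, chosen after their values were seen, Pecam1 and Sox10 lay above every control in each library of the other group, which holds in that direction for 5.37% of all genes. All 6 endothelial markers had a log2 fold change above 0 and all 6 fibroblast markers below 0. Below 0 were also 5 of 6 macrophage markers, 3 of 6 mural markers, 3 of 6 Schwann cell markers, with Mbp and Pmp22 among them, and 1 of 3 neuron markers tested. None in these lists was past the threshold with edgeR, DESeq2, the likelihood ratio test or limma voom, beside 0.707%, 5.51%, 4.41% and 1.06% of all genes. At an unadjusted p of at most 0.05, edgeR gave 1 endothelial, 1 mural, 1 fibroblast and 2 Schwann cell markers, the last being Pmp22 and Sox10. It gave 0 macrophage or neuron markers, and these counts stand beside 17.0% of all genes.

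HuR binds AU-rich and U-rich stretches in the 3′ untranslated region (3′UTR) of transcripts, so these were counted on the sense strand in GENCODE release M21 (GRCm38), with overlapping copies counted. The 3′UTR of Pkia-201, which held a mean of 87.0% of Pkia reads, has 3276 bases. It has 11 copies of ATTTA, 0 of TATTTAT and 2 of TTTTTTT. Of 1411 other tested genes with a 3′UTR within 20% of that length, 96.8%, 54.4% and 76.97% hold these words, with medians of 5, 1 and 4 copies. The comparison is matched for length only, and the Pkia 3′UTR is 62.0% A or T, against a median of 56.9%. Among the other 9 genes ATTTA occurs from 1 time in Prkar1b and Pkig to 10 times in Pkib. A pair of overlapping ATTTA copies in Pkia is shown with the word in capitals, to give the bases around it, on the plus strand of chromosome 3.
Pkia chr3:7444735-7444759: cttattttgaATTTAtttaagacat
Pkia chr3:7444739-7444763: ttttgaatttATTTAagacatgtaa
These are matches of letters, and binding was not measured in these data. Pkia lies at chr3:7366669-7445366, and none of its 31-base words occurs in a transcript of another gene.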

How the data were processed

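The deposited files hold estimated counts per transcript, which the authors made from poly(A) libraries. Reads were mapped by the authors in CLC Genomics Workbench, and the way reads were divided between transcripts is not given in the sources used here. Counts were summed by gene symbol and rounded. Genes were filtered with filterByExpr, normalized by TMM, and differences were tested by quasi-likelihood in edgeR 4.0.16 in R 4.3.3, with Benjamini-Hochberg adjustment over 14851 genes. Alternatives used DESeq2 1.42.0 and limma 3.58.1. TPM was computed from lengths in GENCODE release M21, which matched 103723 of 105129 transcripts and 99.6% of counts. Groups came from the labels, and p-values set the difference between groups against the spread between these animals. Named genes were the 10 PKA genes, Elavl1, from each pathway list those past the threshold, with the smallest p and the highest mean CPM, the genes most correlated with each PKA gene, and from each marker list the most abundant gene and any at 0 in every library. The members and lists were chosen with earlier results of these data known. The word search in 3′UTRs, and the pair of sites printed, were chosen after seeing the data. Some genes that the correlation rule names are not reported here.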

Additional observations from a re-analysis of the deposited data

Results flagged for a closer look

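Of 11 genes examined in the 5 libraries labelled adipo-HuR-/- (the 10 PKA genes and Elavl1), 2 had a library far from the others. For Pkia, which was chosen by these values, this is a description. Pkia in A31 was at 1.38 CPM, with a gap to the next library of 0.862 of the range of the group, from which nothing is read. A31 was also the highest of its group in the sum of contractile genes. Prkar1b in A24 was at 2.03 CPM on 36 reads, with a gap of 0.726 of the range, above the critical value of 0.710. Chance gives such a value in about 1 in 20 groups of normally distributed values, and that distribution was not checked here. The 95% Poisson interval of Prkar1b in A24 was 1.42 to 2.81 CPM. The 3 control libraries were not tested in this way.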

How the results depend on the processing

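The direction of Prkaca, Prkacb, Prkar1b, Prkar2a and Akap1 held in all 19 alternative fits, none passed the threshold in any, and the sizes varied. The log2 fold change ran from 0.098 to 0.40 for Prkaca, -0.50 to -0.053 for Prkacb, 0.34 to 0.64 for Prkar1b, -0.83 to -0.29 for Prkar2a and 0.047 to 0.47 for Akap1. For Pkia, as a description, it ran from -4.87 to -2.09 over the 18 fits that kept it. The number of PKA genes past the threshold was 0, against 1, with limma voom, with at least 10 counts in every library (where Pkia was not tested), with the highest transcript in place of the gene sum, without A24 and A25, and without A7, A8 and A31. In these fits 157, 124, 16, 5 and 4 of all genes were past it. Leaving out each library in turn gave 0 to 1, beside 10 to 190 of all genes. For the pathway genes the number was 3 with DESeq2, 2 with the likelihood ratio test and 1 at an adjusted p of at most 0.10, against 0, beside 5.51%, 4.41% and 3.16% of all genes, and 0 to 2 with each library left out. Over all genes the number past the threshold ran from 4 to 818 over the alternative fits, against 105. PKA genes whose groups do not overlap, Pkia included, numbered 1, against 2, with total counts only (13.4% of all genes, against 11.5%), and 2 to 4 with each library left out (13.2% to 26.9%). With total counts only, the log2 fold change became 0.18 for Prkar1a, 0.080 for Prkar2b and 0.055 for Pkib. For Pkib it was 0.17 with the highest transcript and 0.038 without A7, A8 and A31, and for Pkig -0.027 without A24 and A25. With each library left out it ran from -0.11 to 0.082 for Prkar1a, -0.32 to 0.12 for Prkar2b and -0.49 to 0.21 for Pkib. Over all fits it ran from -0.28 to 0.18 for Prkar1a, -0.57 to 0.12 for Prkar2b and -0.027 to 0.38 for Pkig. With a single length for each gene, the regulatory to catalytic ratio was 1.93 and the Prkar2b share 81.3%. The causes were not tested. Pkia in A24 and A25 and Pkib in every library rest on few reads, which limits their precision.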
